A study of Mus musculus with 7 samples.

Results

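Retinoid binding, synthesis and uptake genes were examined in sorted mouse colon adenoma cells with and without Mex3a, an RNA-binding protein of intestinal stem and progenitor cells. The set holds 9 genes, Stra6, Rbp2, Crabp1, Crabp2, Rdh10, Dhrs3, Dhrs9, Aldh1a1 and Aldh1a3, chosen by name and followed through every probe set that the platform annotation pairs with that gene symbol alone. Of these, 8 genes had such a probe set, 10 probe sets in all among 45037 non-control probe sets, or 8 of 17097 genes. Dhrs9, a retinol dehydrogenase, was not analysed here because no probe set used here carried its symbol alone. None of the 10 probe sets passed the test for a difference between the genotypes, and neither did any of the 45037 (0%). KO and WT arrays overlapped in each of the 10, while they did not overlap in 4.96% of all probe sets. The probe sets were 1422723_PM_at for Stra6, 1422846_PM_at for Rbp2, 1448326_PM_a_at for Crabp1, 1451191_PM_at for Crabp2, 1426968_PM_a_at for Rdh10, 1448390_PM_a_at for Dhrs3, 1416468_PM_at for Aldh1a1, and 1417642_PM_at, 1427395_PM_a_at and 1448789_PM_at for Aldh1a3.

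The 3 KO and 4 WT arrays are Affymetrix profiles of colon adenoma cells sorted for the epithelial protein Epcam and for Tomato, which in these mice reports activity of the Mex3a promoter. The series' text gives the genotypes as Mex3a tom/flox or Tom/+, read here as KO and WT, so that both groups carry the Tomato allele and WT cells keep 1 untargeted Mex3a allele. All mice also carried Villin CreERT2, a tamoxifen-activated Cre driven in gut epithelium, and APC fl/+, 1 floxed copy of the tumour suppressor gene. They received 4 tamoxifen injections and then 2% dextran sulfate sodium, a colitis-inducing agent, for 5 days, and the adenomas were taken 2 months later. Neither age nor sex appears in the sources used here. They also do not say whether the arrays come from different animals, and a p-value here is therefore about the scatter of these arrays, some of which may be technical. RNA came from 2000 cells per sample and was amplified over 24 cycles.

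Cells take up retinol, the circulating form of vitamin A, partly through the membrane receptor STRA6, and enterocytes hold it on the binding protein RBP2. RDH10 oxidises retinol to retinal, DHRS3 turns retinal back into retinol, and the ALDH1A enzymes oxidise retinal irreversibly to retinoic acid. CRABP1 and CRABP2 carry retinoic acid in the cytosol, and CRABP2 can hand it to the nuclear receptors (RAR with its partner RXR), which bind paired hexamers in DNA. In the gut, retinoic acid is known for its part in epithelial differentiation and in directing lymphocytes to the mucosa.

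Promoter sequence is shown for the measured genes that hold a receptor half-site in the 100 bases printed, which lie just upstream of a start site, to show what such a half-site looks like in genes of the pathway itself. The half-sites searched, on both strands and with overlaps counted, were the hexamer AGGTCA and its variants AGTTCA, then GGGTCA, and last GGTTCA. Capitals mark a match, and all 3 matches are on the minus strand, so they read as reverse complements, 101 and 58 bases before the Rbp2 start and 49 bases before the Aldh1a1 start. The sequences are from RefSeq (GRCm38.p6, plus strand), at chr9:98490417-98490516 for Rbp2 and at chr19:20601848-20601947 for the second of 2 Aldh1a1 start sites.
Rbp2: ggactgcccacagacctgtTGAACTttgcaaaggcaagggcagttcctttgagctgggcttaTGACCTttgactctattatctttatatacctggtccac
Aldh1a1: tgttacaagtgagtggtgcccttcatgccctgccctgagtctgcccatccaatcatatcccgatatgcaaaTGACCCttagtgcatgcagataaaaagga
RefSeq windows of 300 bases (250 before to 50 after a start) were matched for 6 of the 9 genes, 12 windows in all, and 4 of the 12 held at least 1 half-site, against 43.7% of 32851 windows genome-wide. A direct repeat of half-sites spaced by 1, 2 or 5 bases was found in 0 of the 12, and in 0.222%, 0.268% and 0.0974% of all windows. A match is a description of the sequence only.

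The deposited values are log2 levels, so a difference of 1 is a 2-fold change. The median level over the non-control probe sets lay between 5.96 and 6.00 in the 7 arrays, and the number of arrays limits the precision. Mex3a checked the labels: on its brighter probe set the KO arrays averaged 6.18 ± 0.11 (SD, n = 3) and the WT arrays 7.33 ± 0.22 (SD, n = 4), without overlap, a difference of -1.13 (SE 0.13; limma, adjusted p = 0.334). Whether its probes lie in the floxed part was not analysed here. Of the markers that define the sort, Epcam lay between 11.87 and 11.99 in every array. The pan-leukocyte marker Ptprc lay between 4.02 and 4.25, within the range of the nonspecific controls given next, whereas Lyz2, a myeloid marker of the same list that gut epithelium can also express, lay between 11.63 and 12.53. The epithelial markers Cdx2 (6.45 to 6.90) and Krt20 (5.98 to 8.36) reached into that control range. The arrays also carry 23 nonspecific control probe sets named by GC count, whose mean levels ran from 3.51 to 7.67. Stra6 and Rdh10 exceeded the highest of these controls in all 7 arrays, Dhrs3 in 5 and the brightest Aldh1a3 probe set in 2, and the other 6 probe sets in 0. The base composition of the gene probes was not analysed here, so this range does not tell which of the 6 were at background. Levels of different probe sets are not comparable with each other.

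Stra6, the retinol receptor, was the most variable of the 10 probe sets, and its variation did not follow genotype. Its log2 level was 9.91, 9.09 and 9.32 in KO replicates 1 to 3, against 9.06, 9.32, 9.32 and 9.87 in WT replicates 1 to 4. KO replicate 1 and WT replicate 4 stood high, and the other 5 arrays lay between 9.06 and 9.32. The SD over the 7 arrays, 0.35, was larger than that of 97.2% of all probe sets. The KO arrays averaged 9.44 ± 0.43 (SD, n = 3) and the WT arrays 9.39 ± 0.34 (SD, n = 4), and the fitted difference was 0.05 (SE 0.24), or 1.04-fold with a 95% interval of 0.703 to 1.53 (limma, adjusted p = 0.954). Within scan batch 1, whose only KO array is replicate 1, KO minus WT was 0.72, and within scan batch 2 it was -0.39. Without KO replicate 1 only scan batch 2 compares the genotypes, so the difference was the same -0.39 (limma, adjusted p = 0.368) and not a separate result. Without WT replicate 1 the difference was -0.07, so even the sign depended on single arrays.

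**Figure D1:**
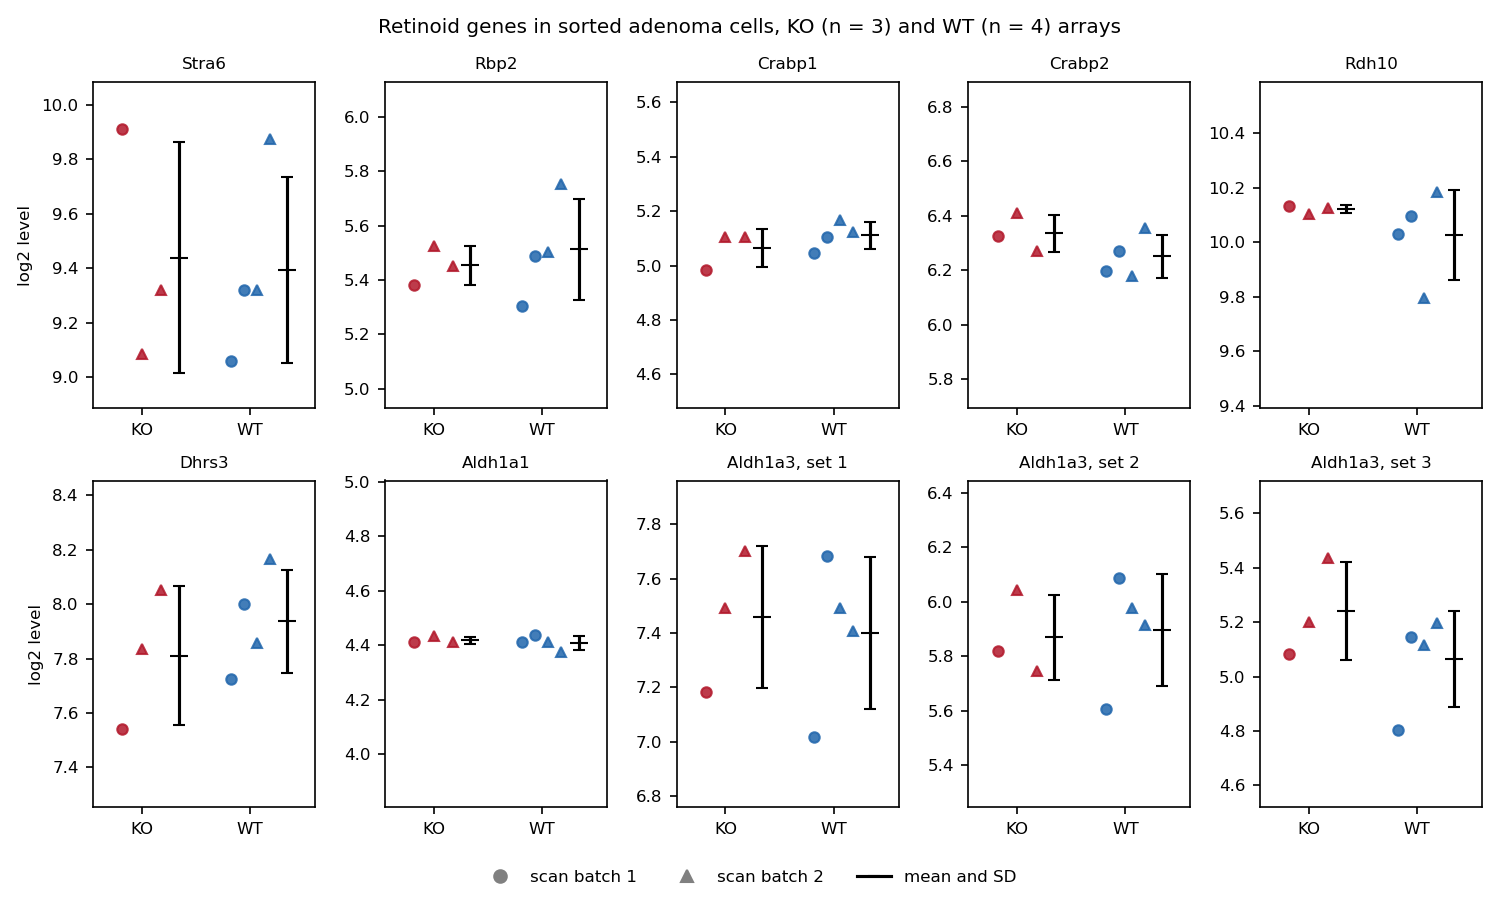
Log2 level of each probe set (vertical axis, the same span in each panel) in 3 KO and 4 WT arrays. Circles are scan batch 1 and triangles scan batch 2, and the bars give the mean and SD; KO and WT overlap in all 10 panels, with Stra6 showing 1 high array in each genotype.

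The probe sets of the binding protein genes had differences between -0.09 and 0.08, and none passed. Rbp2, the retinol-binding protein of enterocytes, read 5.38, 5.53 and 5.45 in KO, against 5.30, 5.49, 5.50 and 5.75 in WT. All KO arrays lay inside the WT range, which WT replicate 4 widened, and the difference was -0.09 (SE 0.08; limma, adjusted p = 0.741). Crabp1, which binds retinoic acid and can direct it to breakdown, read 4.98, 5.11 and 5.11 in KO and 5.05, 5.11, 5.17 and 5.12 in WT. Its difference was -0.06 (SE 0.05), with KO replicate 1 the lowest of all arrays. Crabp2, the binding protein that delivers retinoic acid to its receptors, read 6.32, 6.41 and 6.27 in KO and 6.20, 6.27, 6.18 and 6.35 in WT. It had the smallest exact permutation p of the 10 probe sets, 0.229 (two-sided, over 35 splits of the arrays, whose smallest possible p is 0.0286), with a difference of 0.08 (SE 0.08). Its 95% interval of 0.930- to 1.20-fold bounds the difference in this reading only. Rbp2, Crabp1 and Crabp2 exceeded the highest nonspecific control in 0 arrays, so small differences do not show that the transcripts did not change.

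Of the enzymes between retinol and retinal, Rdh10, the retinol dehydrogenase, was nearly constant in KO. It read 10.13, 10.11 and 10.13 in KO, against 10.03, 10.10, 9.80 and 10.19 in WT, where replicate 3 was low. The KO mean was 10.12 ± 0.01 (SD, n = 3) and the WT mean 10.03 ± 0.17 (SD, n = 4), a difference of 0.10 (SE 0.10; limma, adjusted p = 0.738). Without WT replicate 3 the difference was 0.0011 and without WT replicate 4 it was 0.20. Dhrs3, the retinal reductase that works against RDH10 and is itself induced by retinoic acid, had the largest difference of the set, -0.17 (SE 0.13), or 0.890-fold with a 95% interval of 0.727 to 1.09 (limma, adjusted p = 0.675). It read 7.54, 7.84 and 8.05 in KO, against 7.73, 8.00, 7.86 and 8.16 in WT. KO replicate 1 was the lowest array and KO replicate 3 lay above 3 of the 4 WT arrays. The difference was -0.32 within scan batch 1 and -0.07 within scan batch 2. It was also -0.32 (limma, adjusted p = 0.659) with an RNA quality measure as a further covariate, the level of the Gapdh 3' control probe set minus that of its 5' one. That measure was -0.154, -0.213 and -0.239 in KO and -0.131, -0.209, -0.121 and -0.121 in WT.

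The retinal dehydrogenases, which make retinoic acid, were represented by Aldh1a1 and Aldh1a3. Aldh1a1 was flat at 4.41, 4.43 and 4.41 in KO and 4.41, 4.44, 4.41 and 4.37 in WT. Its mean lay in the lowest 25% of all probe sets (below 4.87), the 1 probe set of the 10 to do so, and its SD over the arrays was larger than that of only 1.08% of probe sets. Its difference was 0.01 (SE 0.03), and at that level a flat reading does not show that the transcript did not change. Aldh1a3 had 3 probe sets, numbered here by falling mean level. Set 1 read 7.18, 7.49 and 7.70 in KO and 7.02, 7.68, 7.49 and 7.41 in WT, set 2 read 5.82, 6.04 and 5.75 in KO and 5.60, 6.08, 5.98 and 5.91 in WT, and set 3 read 5.08, 5.20 and 5.44 in KO and 4.80, 5.15, 5.11 and 5.20 in WT. WT replicate 1 was the lowest array in all 3 sets, and the sets parted over KO replicate 3, which was highest in sets 1 and 3 but second lowest in set 2. The differences were 0.02 (SE 0.17), -0.04 (SE 0.13) and 0.14 (SE 0.09), with adjusted p (limma) of 0.975, 0.927 and 0.646. Set 1 turned to -0.25 (limma, adjusted p = 0.735) with the Gapdh measure as covariate.

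Over the set as a whole, 0 of the 10 probe sets passed an adjusted p under 0.05 in limma, as did 0 of 45037 probe sets in the table (0%). At an unadjusted p under 0.05 there were 0 of 10, against 9.39% of all probe sets, and the KO and WT arrays did not overlap in 0 of 10, against 4.96% of all. The fitted difference was positive for 6 and negative for 4, with a median of 0.02, beside a median of -0.02 over all probe sets. For 9 of the 10 the whole 95% interval lay within 0.5 on the log2 scale in either direction, and the widest, that of Stra6, reached 0.61. The 2 scan batches gave the same sign for 7 probe sets and opposite signs for 3, which were Stra6, Aldh1a1 and set 1 of Aldh1a3. WT replicate 1 was the lowest array for 5 of the 10 probe sets and WT replicate 4 the highest for 3.

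**Figure D2:**
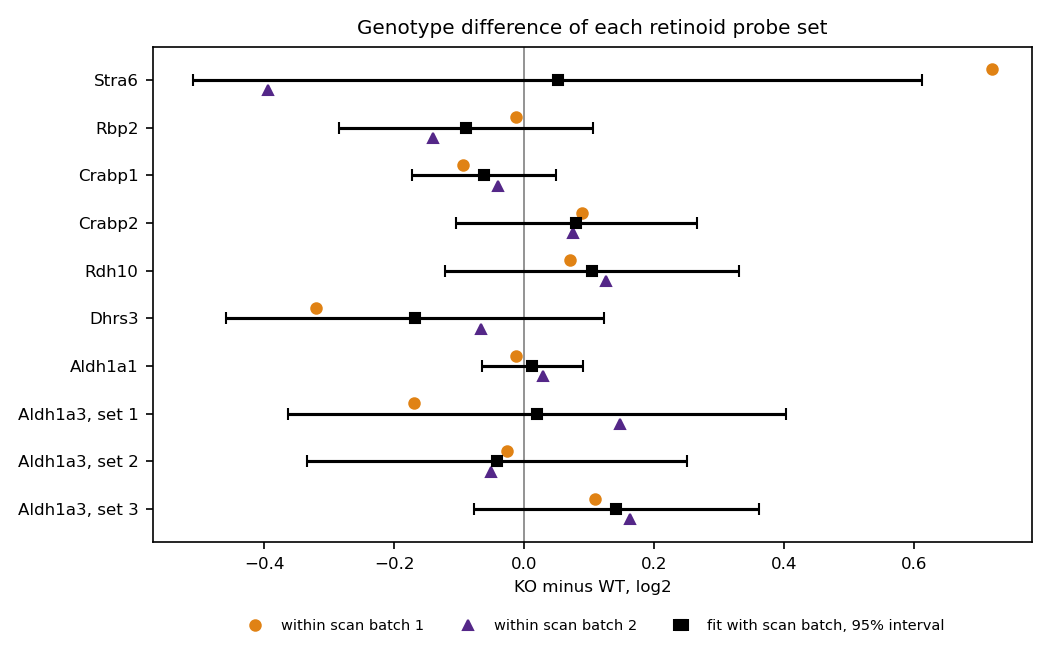
KO minus WT on the log2 scale (horizontal axis) for each of the 10 probe sets. Squares with bars are the fit with scan batch and its 95% interval, circles and triangles the plain differences within scan batches 1 and 2; every interval includes 0, and Stra6 reads 0.72 in scan batch 1 and -0.39 in scan batch 2.

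The rest of the pathway was described from lists of receptors, clearing enzymes, carriers, further dehydrogenases, ester and carotenoid enzymes and genes induced by retinoic acid, with 1 probe set per gene. Of 51 listed gene symbols 44 had a probe set, and 6 of these 44 genes lay in the lowest 25% by level. In limma 0 of the 44 passed an adjusted p under 0.05, against 0% of 17097 genes. At an unadjusted p under 0.05 there was 1 higher in KO, against 5.78% of all genes, and 2 lower, against 3.83%. The groups did not overlap for 0 of the 44, against 5.13% of all genes. Differences were positive for 17 and negative for 27, with a median of -0.03 beside -0.02 over all genes. The further retinol and retinal oxidoreductases were split at 7 positive and 7 negative, while the other carriers had 1 positive and 4 negative, the receptors 2 and 3, the ester and carotenoid enzymes 3 and 5 and the genes induced by retinoic acid 2 and 5.

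Among the nuclear receptors, Rara and Rxra had the largest negative differences and neither passed. Rara, the widely expressed retinoic acid receptor, read 8.95, 8.85 and 8.73 in KO and 8.94, 8.98, 9.32 and 9.00 in WT. Only KO replicate 1 reached into the WT range, and the difference was -0.23 (SE 0.12; limma, adjusted p = 0.574), at -0.01 within scan batch 1 and -0.37 within scan batch 2. Rxra, the partner receptor, differed by -0.24 (SE 0.10; limma, adjusted p = 0.523) on its brightest probe set and by -0.35 (SE 0.13) and 0.12 (SE 0.10) on the others, so that its probe sets disagreed in sign. The differences of Rxrg, Rarg and Rxrb were -0.11 (SE 0.06), 0.04 (SE 0.11) and 0.10 (SE 0.17), and a second probe set of Rarg gave -0.23 (SE 0.14). The retinoic acid hydroxylases Cyp26a1 and Cyp26b1 clear the ligand and are among the genes it induces most readily. They read 5.23 ± 0.07 and 6.19 ± 0.03 (SD, n = 3) in KO, against 5.21 ± 0.06 and 6.21 ± 0.09 (SD, n = 4) in WT. Their differences were 0.02 (SE 0.06) and -0.03 (SE 0.08), with adjusted p (limma) of 0.940 and 0.912. Both exceeded the highest nonspecific control in 0 arrays, so similar readings do not show that the transcripts did not change.

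Among the remaining enzymes, Aldh8a1, an aldehyde dehydrogenase that can oxidise retinal, and Rdh9, a short-chain dehydrogenase, had the smallest p. Aldh8a1 read 5.86, 6.20 and 6.19 in KO and 5.91, 6.27, 6.43 and 6.62 in WT, with WT replicate 1 beside the low KO replicate 1, and differed by -0.29 (SE 0.10; limma, adjusted p = 0.510). Rdh9 read 9.97, 9.92 and 10.01 in KO and 9.74, 9.99, 9.66 and 9.54 in WT, a difference of 0.26 (SE 0.09; limma, adjusted p = 0.510) with WT replicate 2 among the KO arrays. The suffix of its probe set marks probes shared between similar genes, so its reading is uncertain as to gene. Rdh14, a retinal reductase, differed by 0.19 (SE 0.10), Rpe65, the isomerase of the visual cycle, by -0.15 (SE 0.07) and Rdh7, another short-chain dehydrogenase, by -0.11 (SE 0.06). On a second, dimmer probe set Rdh14 differed by 0.27 (SE 0.07; limma, adjusted p = 0.483), and its lowest KO array (4.62) stood above its highest WT array (4.57). The KO and WT arrays did not overlap in 4.96% of all probe sets. The mean of this second probe set, 4.55, lay below the lower quartile of all probe sets, 4.87. It exceeded the highest nonspecific control in 0 arrays, so whether it stands above background cannot be told. Aldh8a1, the brighter Rdh14 probe set, Rpe65 and Rdh7 also exceeded that control in 0 arrays, so the same holds for them. Rdh7 had a mean of 4.84, below the same quartile.

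**Figure D3:**
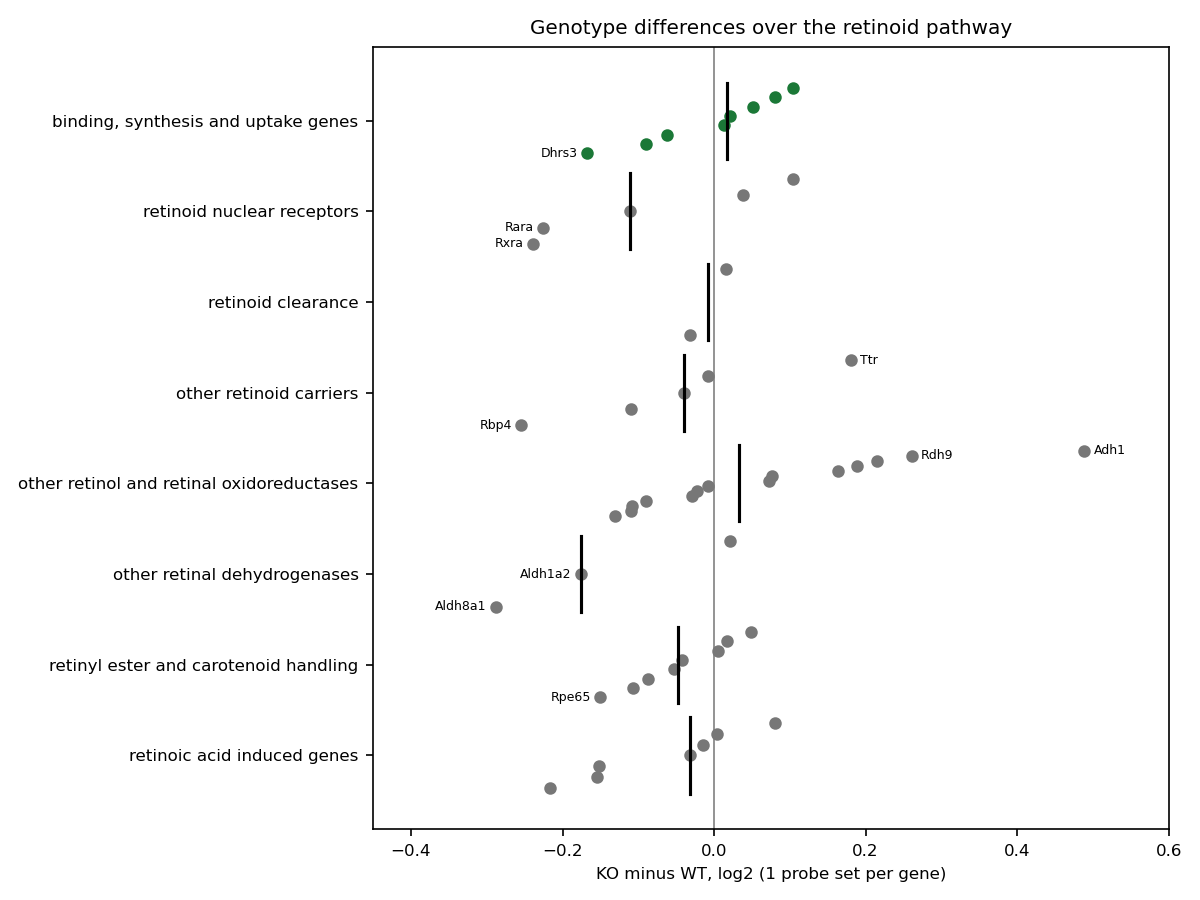
KO minus WT on the log2 scale (horizontal axis, 1 probe set per gene) for the measured genes of the set (green, top row) and of the other retinoid lists (grey), with the median of each list as a vertical bar. Every row has points on both sides of 0, and the genes of the set lie between -0.17 and 0.10.

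A few pathway genes outside the naming rule were chosen after their values were seen. Rbp4, the plasma retinol carrier, was at 7.65 in WT replicate 1 and between 6.28 and 6.51 in all other arrays, and Aldh1a2, the third retinal dehydrogenase, was at 6.32 in WT replicate 1 and between 5.29 and 5.56 elsewhere. Adh1, an alcohol dehydrogenase that oxidises retinol, read 9.93, 10.84 and 10.73 in KO and 8.99, 10.42, 10.15 and 10.08 in WT, with KO replicates 2 and 3 above every WT array and WT replicate 1 lowest. The differences of Rbp4, Aldh1a2 and Adh1 were -0.25 (SE 0.28), -0.18 (SE 0.20) and 0.49 (SE 0.30), and none passed (limma, adjusted p = 0.781, 0.787 and 0.621). Adh1 was higher in KO within both scan batches, by 0.22 in the first and 0.66 in the second, and its difference was 0.28 without WT replicate 1 and 0.76 without WT replicate 2. Ttr, which circulates bound to RBP4, read 7.89, 8.62 and 8.49 in KO and 8.08, 8.19, 8.16 and 8.02 in WT, so that 2 KO arrays stood above every WT array and KO replicate 1 below them all, with a difference of 0.18 (SE 0.15; limma, adjusted p = 0.705). Its second probe set, whose suffix marks probes that may match other transcripts, differed by 0.58 (SE 0.23; limma, adjusted p = 0.512), at -0.14 within scan batch 1 and 1.07 within scan batch 2. Beside these values, the mature colonocyte markers (8 of 9 measured) had their lowest mean in WT replicate 1, at -0.41 relative to all arrays, and the other WT arrays ranged up to 0.05, while KO ranged from -0.04 to 0.48. The summed log2 level of that list was 50.4 to 54.5 in KO and 47.5 to 51.1 in WT. Its genes did not all move together. Slc26a3, Car1, Aqp8, Guca2a and Ceacam20 were lowest in WT replicate 1, and Car4, Tmigd1 and Clca4a in KO replicate 3. Guca2a read 10.12, 10.85 and 10.68 in KO and 8.88, 10.19, 10.08 and 9.40 in WT, a difference of 0.85 (limma, adjusted p = 0.510). Slc26a3 read 7.14 in KO replicate 2 and between 4.81 and 5.23 elsewhere, while Car4 stayed between 6.05 and 6.53. Fibroblast markers (10 of 10 measured) were highest in KO replicate 2, at 0.37, and WT replicate 3, at 0.34, and at -0.24 in WT replicate 1, with summed levels of 54.9 to 60.2 in KO and 54.1 to 59.9 in WT. The part of either list in these readings was not tested. In sorted bulk samples, fewer cells of a type and less RNA per cell cannot be told apart.

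**Figure D4:**
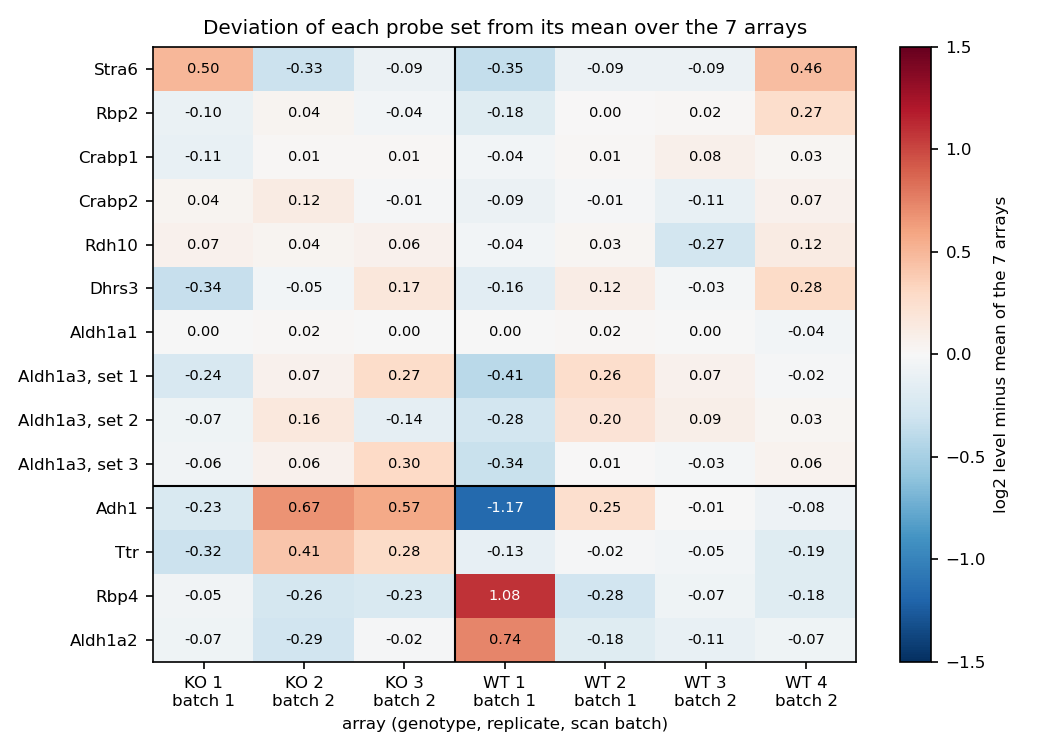
Log2 level of each probe set minus its mean over the 7 arrays (colour and printed value), with arrays as columns and probe sets as rows. The 10 rows above the line are the set and the 4 below it are other retinoid genes; in WT replicate 1 Rbp4 (7.65) and Aldh1a2 (6.32) stand above and Adh1 (8.99) below their means.

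For the 3 genes of the set that varied most between arrays, the genes of most similar pattern were found by Pearson's r of levels over the 7 arrays among 14327 other genes. They are given as a description, since the highest of so many correlations over 7 arrays is always near 1, and all points share one amplification scheme and one normalization. Stra6 was most like Cd274, which encodes the immune checkpoint ligand PD-L1 (r = 0.982), Terb2, a meiotic telomere protein (0.980), and Srrm3, a splicing regulator (0.979). Cd274 read 5.72, 5.39 and 5.48 in KO and 5.40, 5.43, 5.48 and 5.68 in WT, with the same 2 high arrays as Stra6. The SDs of Cd274, Terb2 and Srrm3 over the arrays were only 0.13, 0.08 and 0.13. Their levels lay within the range of the nonspecific controls, so whether they stand above background cannot be told. Set 1 of Aldh1a3 was most like Dnajc11, a mitochondrial chaperone-like protein (0.979), Rassf9 (0.976) and the phospholipase Plcb3 (0.973), and Rassf9 spanned 6.32 in WT replicate 1 to 7.71 in KO replicate 3. Dhrs3 was most like Nbl1, a secreted BMP antagonist (0.975), the semaphorin Sema6b (0.965) and Psd3 (0.958). The levels of Nbl1 and Sema6b also lay within the range of the nonspecific controls, so the same holds for them. Rassf9 and Psd3 exceeded that range in some arrays only. The SDs of Dnajc11, Plcb3 and Nbl1 were only 0.09, 0.07 and 0.10. With any 1 array left out, r stayed between 0.923 and 0.998 for these 9 pairs.

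Markers of other cell types were compared in the same fit. In limma 0 genes passed an adjusted p under 0.05 in any of the 8 marker lists. At an unadjusted p under 0.05, 1 of 8 mature colonocyte, 1 of 14 leukocyte and 1 of 10 fibroblast genes was higher in KO, against 5.78% of all genes, and 1 of 6 endothelial genes was lower, against 3.83%. The endothelial list mean, relative to all arrays, was -0.110 to 0.0053 in KO and 0.014 to 0.054 in WT, without overlap. Cdh5 differed most in that list, by -0.41 (limma, adjusted p = 0.458), while Pecam1 and Kdr were positive, at 0.04 and 0.03. All endothelial readings lay within the range of the nonspecific controls, and the cause was not tested. The median differences were 0.03 for mature colonocytes, 0.08 for enteroendocrine cells, 0.01 for leukocytes, -0.01 for fibroblasts, -0.03 for endothelium, -0.05 for small-intestinal enterocytes, -0.10 for dendritic cells and -0.0041 for epithelium. KO replicate 3 and WT replicate 2 carried Y-linked transcripts, and the other 5 arrays did not. On those 5 arrays alone, an alternative chosen after seeing the data, the differences of Stra6, Dhrs3 and Aldh1a3 (set 1) were 0.07, -0.18 and 0.09.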

How the data were processed

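The authors deposited 1 table of log2 levels. RMA, a method that corrects background, normalizes across arrays and summarises each probe set, is the tool named per the submitters' processing notes; its version, any filter and any correction for batches are not stated there. The table has 45141 probe sets, of which 104 controls were left out of the fit. The annotation gave 28898 probe sets 1 gene symbol, 551 several and 15588 none. The lists and members were chosen with earlier results of these data known.

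KO was compared with WT in limma 3.58.1 (R 4.3.3) over all 45037 non-control probe sets with no level filter, using lmFit and eBayes with a trend, scan batch as a fixed covariate (batch 1: 1 KO, 2 WT; batch 2: 2 KO, 2 WT), two-sided p-values and the Benjamini-Hochberg method at a threshold of 0.05. The fit left 4 residual degrees of freedom and a median SE of 0.081. RNA quality was taken from Gapdh control probe sets. Group means and SDs come from the values themselves. The fit was tested on simulated arrays with independent scatter and no scan batch effect. The changes added there were larger than any difference of the set, so that test does not bear on these differences. In 19944 probe sets at least 2 arrays share an identical value. For pathway and marker lists the probe set with the highest mean stood for a gene. Named were all members, the receptors and Cyp26 genes, the 8 pathway genes of smallest p, Mex3a, and the 3 genes most like each of the 3 most variable members. Lists covered epithelium, mature colonocytes, small-intestinal enterocytes, leukocytes, dendritic cells, fibroblasts, endothelium and enteroendocrine cells. Scanner files were not used here.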

Additional observations from a re-analysis of the deposited data

Results flagged for a closer look

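In 3 of 33 probe sets examined, 1 of the 4 WT arrays stood apart from the others by more than Dixon's 95% limit, which chance exceeds in about 1 of 20 groups. Rbp4 was at 7.65 in WT replicate 1, against 6.28 to 6.50 in the other WT arrays. Aldh1a2 was at 6.32 in WT replicate 1, against 5.40 to 5.51. A probe set of Rxra was at 7.16 in WT replicate 2, and the other WT arrays all read 7.32. Because those 7.32 readings are identical, a gap of any size would exceed the limit, and the rate of 1 of 20 does not apply. The 10 probe sets of the binding, synthesis and uptake genes gave none.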

How the results depend on the processing

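The fit was repeated under 21 alternatives. For the retinoid set and for the other pathway genes, 0 passed an adjusted p under 0.05 under each of them (lowest adjusted p of the set 0.198, Rdh10 with array weights), and over all probe sets the count with 1 array left out was 0 to 1, the 1 without WT replicate 4. The count of all probe sets at an unadjusted p under 0.05 was 4231, and on the same probe sets ranged from 2273 without KO replicate 3 to 10866 with array weights. For the 44 other pathway genes that count was 3, beside 9.39% of all probe sets. It was 13 within scan batch 2 (19.3% of all), 14 with array weights (24.1%), 10 without KO replicate 1 (16.9%) and 6 without WT replicate 2 (13.6%), so the share of all probe sets moved the same way. It was 0 without KO replicate 2 (5.13%), within scan batch 1 (5.34%) and with no term for scan batch (5.85%). For the set it was 0, and 1 without WT replicate 2 (Aldh1a3 set 3), with array weights (Rdh10) and with the Gapdh covariate (Dhrs3; 7.51% of all). No paired analysis was possible because the labels give no replicate number shared by the genotypes.

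Some signs turned between alternatives, and the cause was not tested. No probe set had passed in the main fit, so every turn was bound to be in a difference that had not passed. With 1 array left out, Stra6 ranged from -0.39 to 0.30, Aldh1a3 set 1 from -0.069 to 0.15, set 2 from -0.12 to 0.037, Aldh1a1 from -0.0010 to 0.029, Rarg from -0.070 to 0.13, Rxrb from -0.023 to 0.37 and Cyp26a1 from -0.014 to 0.058. Within scan batch 1, where the lone KO array is taken to scatter as WT does, Aldh1a1 was at -0.012, Aldh1a3 set 1 at -0.17, Rarg at -0.0031 and 0.073 on its 2 probe sets, Rxrb at -0.30, Cyp26b1 at 0.027, Ttr at -0.24 and -0.14, and Rpe65 at 0.000435. Within scan batch 2 Stra6 was at -0.39 and Cyp26a1 at -0.0075. The differences without KO replicate 1 are the same, because only scan batch 2 then compares the genotypes. With array weights Stra6 was at -0.15, Rarg at -0.051 and Cyp26a1 at -0.032. With the Gapdh covariate Aldh1a1 was at -0.0035, Aldh1a3 set 1 at -0.25, Rxrb at -0.21, Cyp26a1 at -0.0023 and Ttr at -0.044. Quantile normalization put Aldh1a3 set 1 at -0.0094, and the mean of all probe sets put Rarg at -0.10. On the 5 arrays without Y-linked signal, an alternative chosen after seeing the data, Aldh1a3 set 2 was at 0.15, Cyp26a1 at -0.0016, Cyp26b1 at 0.033 and the third Rxra probe set at -0.0090. Left out by the filters on low levels were Aldh1a1 at both 25% and 50%, and Rbp2, Crabp1 and Aldh1a3 sets 2 and 3 at 50%. Crabp1 also has no value with 1 probe set per gene and that filter at 25%.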
